A study of Mus musculus with 7 samples.

Results

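The major urinary protein (Mup) genes were examined in livers of mice with and without hepatic Rbpj. The 7 genes considered were Mup1, Mup2, Mup3, Mup4, Mup5, Mup20 and Mup21, taken by the gene name that the array gives its non-control probes. They were 7 of 35715 gene names on the array, and were measured by 9 of its 55681 probes, since Mup4 and Mup20 had a pair of probes each and the other genes had 1 each. Another 9 probes carried the name or description of a Mup gene, transcript or pseudogene outside these 7 genes and were used for comparison.

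Whole liver of C57BL/6J mice aged 4 weeks was hybridised to 1-colour Agilent arrays, with 1 array for each animal. The knockout group (Rbpj-/-, n = 3) carried AlfpCre and loxP-flanked Rbpj alleles. The control group (Rbpj+/+, n = 4) carried the same floxed alleles without Cre, so neither group held an unmodified Rbpj locus and the controls carried no Cre. AlfpCre is driven by albumin regulatory elements with an alpha-fetoprotein enhancer, which recombines cells of the liver lineage before birth, and the knockout mice were described as small, with cholestasis and hepatic necrosis. Rbpj encodes the DNA-binding partner of the Notch receptors. The sex of the animals was not given in the labels. Arrays are numbered within each genotype, as controls 1 to 4 and knockouts 1 to 3, and values are given in that order. The arrays shared 1 slide and 1 scan day, but the control arrays filled one row of the slide and the knockout arrays the other, so that slide row and genotype cannot be told apart.

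Mup genes lie in a dense cluster of near-identical copies and pseudogenes on mouse chromosome 4. They encode small lipocalins, barrel-shaped proteins that carry hydrophobic pheromones, which hepatocytes secrete into the blood in large amounts and the kidney passes into the urine. Male mice make more of them than females. Pulses of growth hormone, signalling through its receptor, JAK2 and STAT5B, raise their transcription from puberty on, and androgen, glucocorticoid and thyroid hormone also act on them. Mup20, named darcin, is the pheromone of male urine that attracts females. Mup4 and Mup5 differ more from the central group of Mup genes than those differ among themselves, and several members are also made in glands of the head.

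The probes are 60 bases long, and their sequences decide which copies a value can stand for. Mup3 and Mup6 are shown aligned because their probes cover the same stretch of 2 paralogs, with the differing bases in capitals. Laid side by side without offset, they match at 51 of 60 positions, with a longest shared run of 23 bases. Whether either probe reads part of the other gene's transcript was not tested. On the knockout arrays the mean intensity was 4634 for the Mup3 probe and 38.6 for the Mup6 probe. Mup6 is not among the 7 genes.

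Mup3: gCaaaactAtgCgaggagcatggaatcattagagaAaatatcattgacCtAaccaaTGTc
Mup6: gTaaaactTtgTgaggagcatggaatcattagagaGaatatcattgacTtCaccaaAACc

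The Mup1 probe is shown because the array's annotation lists transcripts of Mup1, Mup2 and Mup19 for it. It begins at base 459 of the transcript, and the array places it at chr4:61441060-61441119 of the mm9 assembly, minus strand.

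Mup1: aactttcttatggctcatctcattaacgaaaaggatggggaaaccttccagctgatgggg

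The Mup5 probe begins with the start codon, in capitals, at base 58 of the transcript (chr4:61496097-61496156, mm9, minus strand). It covers the start of the coding sequence, and the annotation lists Mup5 alone for it.

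Mup5: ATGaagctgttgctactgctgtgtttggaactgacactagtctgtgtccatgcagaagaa

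For Mup20 and Mup4, the dimmer of the 2 probes of each gene is shown, because it lies in the body of the transcript while the brighter one lies near its 3′ end. The dimmer Mup20 probe begins at base 314 (chr4:61713671-61713730, mm9, minus strand) and the dimmer Mup4 probe at base 95 (chr4:59973383-59973442, mm9, minus strand).

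Mup20: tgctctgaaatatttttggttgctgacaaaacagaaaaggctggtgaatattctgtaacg
Mup4: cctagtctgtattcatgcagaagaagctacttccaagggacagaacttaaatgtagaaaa

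The brighter probes of Mup4 (chr4:59969824-59969883) and Mup20 (chr4:61610163-61610222) resembled each other. Over the 52 bases in which they overlapped when aligned without gaps, 45 matched, and 24 of those formed 1 run. Each also resembled the probe of the pseudogene Mup-ps16, with 43 of 47 bases alike for Mup4 and 49 of 55 for Mup20. The array places the 2 Mup20 probes 103 kb apart on mm9. The remaining member probes lay at chr4:61440295-61440354 for Mup2, chr4:61745794-61745853 for Mup3 and chr4:61808866-61808925 for Mup21, all on the minus strand of mm9, and each by design within a transcript.

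The 2 probes named Rbpj gave lower values in the knockout livers, with a different degree of separation. The array places the brighter one on chromosome 5 and the dimmer one on chromosome 6 of mm9, and which locus the dimmer one reads was not tested. The brighter one fell by 1.13 on the log2 scale (SE 0.24, adjusted p = 0.0115 by limma), with no overlap of the groups. The dimmer one fell by 1.63 (SE 0.58, adjusted p = 0.0723 by limma), its groups overlapped, and the call was lost when any of 5 arrays was left out. The exons removed by Cre were not given in the labels, and whole liver also holds cells outside the Cre lineage, so a probe outside the deleted part would check little. Detection was broad on every array, with 22882 to 36138 probes well above background, and the 75th percentile of signal ran from 57.5 to 103 on the control arrays and from 118 to 143 on the knockout arrays. Precision is limited by the small number of arrays.

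All 7 Mup genes were lower in Rbpj-/- liver than in Rbpj+/+ liver. Their falls ran from 2.56-fold for Mup20 to 123-fold for Mup21, with a median log2 fold change of -4.67 against -0.13 over all 18781 tested genes. All 9 member probes passed the test (limma over 24547 tested probes, Benjamini-Hochberg adjusted p below 0.1), where 19.2% of all tested probes were called lower. Counted by gene, with the brightest tested probe standing for each, 7 of 7 members were called lower against 19.6% of tested genes, and 0 were called higher against 14.6%. On all 9 probes every knockout array lay below every control array, which held for 20.6% of tested probes. Both counts of 9 include the dimmer Mup4 probe, which was well above background on 4 of 4 control and 0 of 3 knockout arrays. It passed the filter through the control arrays alone. When only probes detected on all 7 arrays were tested, 8 member probes were called lower. In whole tissue, fewer hepatocytes and less Mup RNA in each hepatocyte cannot be told apart from a Mup value alone. Beside the Mup median of -4.67, 12 hepatocyte markers had a median log2 fold change of -0.11, and albumin (Alb) fell by 0.78 (SE 0.18). All signals below are log2 values relative to the 75th percentile of the same array, so a level of 0 is that percentile, and levels of different probes are not compared. That percentile was higher on the knockout arrays (118 to 143) than on the control arrays (57.5 to 103), so an unchanged intensity reads as a fall on this scale. How much of the Alb fall comes from the scaling was not tested.

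**Figure D1:**
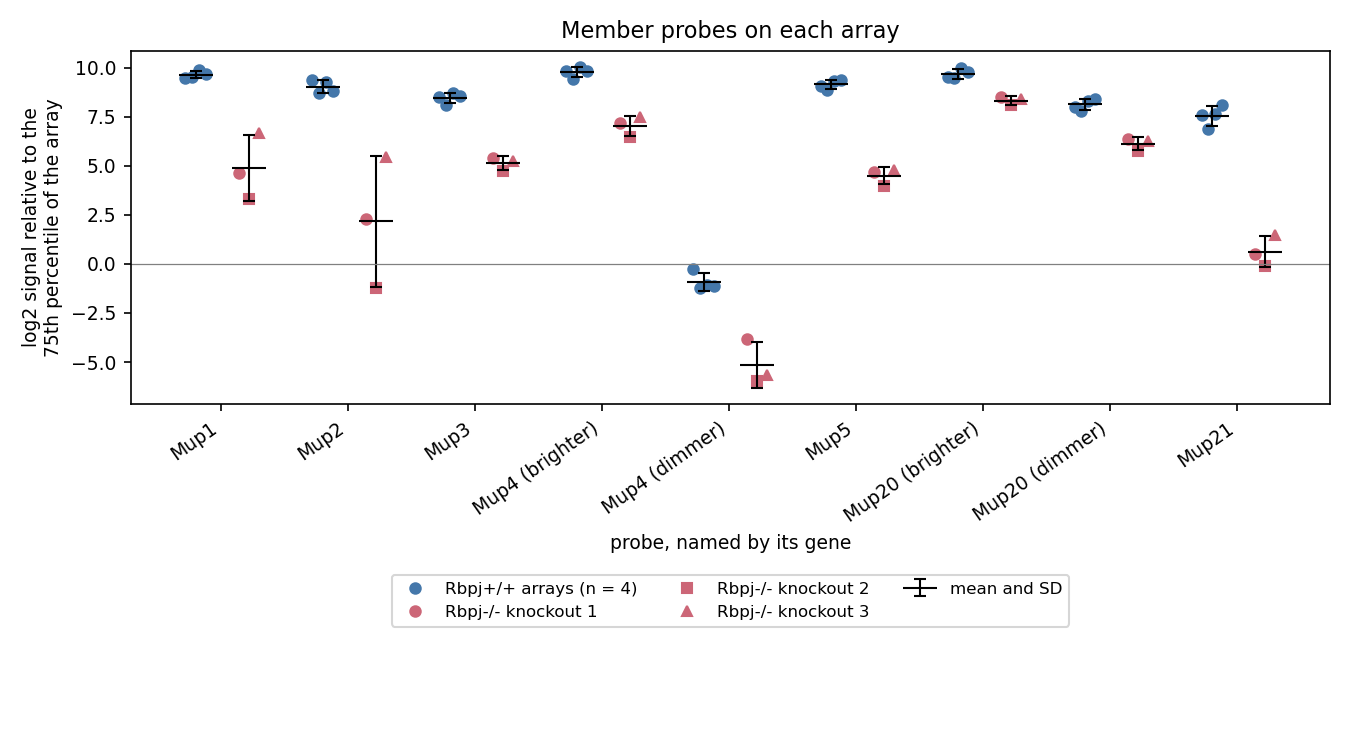
Signal of each member probe on each array, as log2 relative to the 75th percentile of that array (y axis), by probe (x axis). Blue circles are the 4 Rbpj+/+ arrays, red symbols the 3 Rbpj-/- arrays, knockout 1 (circle), 2 (square) and 3 (triangle), and black bars the mean and SD of each group. Every red symbol lies below every blue circle of its probe, and knockout 2 is the lowest array for the 8 probes that were well above background on all 3 knockout arrays (all but the dimmer Mup4 probe).

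Mup21 showed the largest fall of the 7 genes. Its signal was 7.59, 6.88, 7.63 and 8.12 on the control arrays, and 0.50, -0.13 and 1.45 on the knockout arrays. The control values thus lay well above the array's 75th percentile and the knockout values around it, with a gap of 5.43 between the nearest arrays of the 2 groups. The log2 fold change was -6.94 (SE 0.40, adjusted p = 5.97e-05 by limma). Among all tested probes, 16 including this one fell as far or further. Signal left on the knockout arrays was 0.754%, 0.488% and 1.45% of the control mean in the same array order.

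Mup2, one of the central group of genes whose products make up most urinary Mup, had almost the same mean fall but a far wider spread. Its control values were 9.35, 8.70, 9.26 and 8.80, and its knockout values were 2.26, -1.24 and 5.47. The lowest and the highest knockout array differed by 105-fold, against 1.57-fold among the 4 control arrays. The log2 fold change was -6.86 (SE 1.23, adjusted p = 0.0067 by limma), that is 116-fold. It became -5.16 without knockout 2 and -8.52 without knockout 3, and remained called in both cases. Knockout 3 kept 8.50% of the control mean, beside 0.920% on knockout 1 and 0.0812% on knockout 2.

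Mup1, also of the central group, followed the same order of arrays. Its signal was 9.49, 9.53, 9.88 and 9.67 in the controls and 4.65, 3.31 and 6.66 in the knockouts. The controls differed by 1.30-fold from lowest to highest and the knockouts by 10.2-fold. Mup1 fell by 4.77 on the log2 scale (SE 0.64, adjusted p = 0.00208 by limma), a 27.3-fold difference that became 15.9-fold without knockout 2 and 50.6-fold without knockout 3. Since the annotation lists Mup1, Mup2 and Mup19 for this probe and Mup1 and Mup2 for the Mup2 probe, the values of Mup1 and Mup2 are those of several near-identical copies together.

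Mup5 fell about as far as Mup1 but evenly. The control values were 9.07, 8.88, 9.32 and 9.35, and the knockout values 4.70, 3.98 and 4.78. No control array came within 4.10 log2 units of a knockout array. The log2 fold change was -4.67 (SE 0.25, adjusted p = 5.97e-05 by limma), and 4.57%, 2.77% and 4.81% of the control mean was left on the 3 knockout arrays.

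Mup3 fell by 3.34 on the log2 scale (SE 0.24, adjusted p = 0.000206 by limma), a 10.1-fold difference. Its controls read 8.48, 8.10, 8.71 and 8.55, and its knockouts 5.40, 4.71 and 5.24. The 2 groups were equally tight, with a 1.53-fold range among the controls and 1.61-fold among the knockouts.

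The 2 Mup4 probes both fell and differed in depth of signal. The brighter probe read 9.82, 9.42, 10.04 and 9.82 in the controls and 7.18, 6.45 and 7.46 in the knockouts, a fall of 2.74 on the log2 scale (SE 0.27, adjusted p = 0.000649 by limma). The dimmer one read -0.27, -1.25, -1.08 and -1.11 in the controls and -3.84, -5.98 and -5.68 in the knockouts. It was well above background on 4 of 4 control arrays and 0 of 3 knockout arrays, so that it gives a bound only, at least 6.5-fold lower (adjusted p = 0.00128 by limma). The bound is the control mean over the mean of, on each knockout array, the higher of the lowest signal well above background and the probe's own signal.

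Mup20 kept the largest share of its control signal. On the brighter probe the controls read 9.51, 9.47, 9.98 and 9.76 and the knockouts 8.51, 8.07 and 8.39, so that 44.6%, 32.8% and 40.8% of the control mean was left. The fall of 1.36 on the log2 scale (SE 0.21, adjusted p = 0.00381 by limma) was nonetheless exceeded by only 3.26% of tested probes. On the dimmer probe, controls of 8.01, 7.81, 8.32 and 8.38 stood against knockouts of 6.35, 5.76 and 6.28, a 4.01-fold fall (SE 0.23 on the log2 scale, adjusted p = 0.00128 by limma). The 2 probes fell by different amounts. The brighter minus the dimmer probe within an array was 1.55 ± 0.14 in the controls (SD, n = 4) and 2.19 ± 0.11 in the knockouts (SD, n = 3), without overlap (exact two-sided permutation p = 0.0286, the smallest that 35 splits of 7 arrays allow). Under quantile normalization the fall of the brighter probe was 0.92, and 0.91 with the values the authors deposited, both still called.

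**Figure D2:**
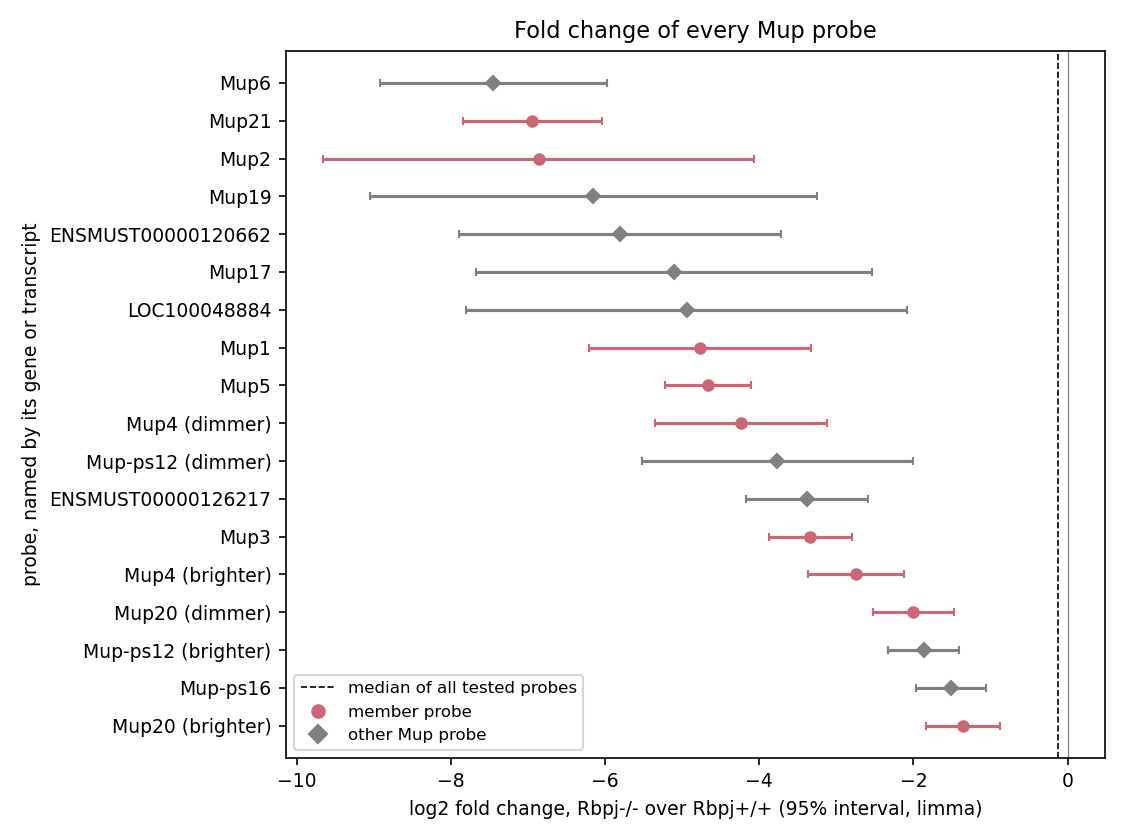
Log2 fold change of every Mup probe (x axis, Rbpj-/- over Rbpj+/+) with its 95% interval from limma, by probe (y axis). Red circles are the 9 member probes and grey diamonds the 9 other Mup probes, and the dashed line at -0.12 is the median of all tested probes. No interval reaches 0, and the widest intervals belong to Mup2, Mup19, LOC100048884 and Mup17.

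The falls of the members were then set against each other within each array, which removes the scaling between arrays. For 21 pairs of members, the difference between their log2 signals was compared between genotypes. In 17 pairs the 2 groups did not overlap (exact two-sided permutation p = 0.0286 each, unadjusted, the smallest possible). Every gene enters several pairs, and the Mup1 and Mup2 probes list genes in common, so the pairs are not independent of each other. How often pairs of other probes separate in this way was not tested, so whether 17 of 21 is unusual is not known. In order of their falls, Mup21 and Mup2 could not be separated, with a difference of 0.08 between their log2 fold changes (exact permutation p = 0.9714), and neither could Mup1 and Mup5, which differed by 0.10 (exact permutation p = 0.9429). Each further step did separate, by 2.09 from Mup2 to Mup1, 1.33 from Mup5 to Mup3, 0.60 from Mup3 to Mup4 and 1.39 from Mup4 to Mup20. The order was taken from the same values, with the brighter probe for Mup4 and Mup20. With the mean over its probes, Mup4 gave -3.49, beyond the -3.34 of Mup3, so their order depends on the probe. That mean includes the dimmer Mup4 probe, which gives a bound only. Mup20 fell 4.01-fold on its dimmer probe and 2.56-fold on the brighter, so the last step also depends on the probe. The other pairs with overlap were Mup1 with Mup3 (p = 0.1143) and Mup2 with Mup5 (p = 0.2000, both exact permutation), and in each of the 4 overlapping pairs 1 gene was Mup1 or Mup2. The Mup20 difference from Mup21 was the widest, at 5.59.

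The members differed more in how evenly they fell than in whether they fell. Among probes well above background on all 3 knockout arrays, knockout 2 was the lowest of them for 8 of 8 member probes and for 7 of 7 other Mup probes, whereas it was the lowest for 26.4% of such tested probes and 32.2% of those called lower. For male-biased liver genes outside the Mup family that were called lower, taken without that filter, it was the lowest for 10 of 21. Several Mup probes list genes in common, so their counts are not independent of each other. Knockout 3 was the highest for 5 of these 8 member probes and knockout 1 for the other 3. The range among the knockout arrays placed Mup2 and Mup1 above at least 99.6% of tested probes, while that of the brighter Mup20 probe exceeded 41.4% of them. Among the control arrays, the Mup1 range exceeded 14.6% and the Mup2 range 44.9% of tested probes. A range of more than 10-fold among the knockout arrays was found for 54 of the 24012 tested probes well above background on all 3 of them, which included 2 member probes and 4 other Mup probes.

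**Figure D3:**
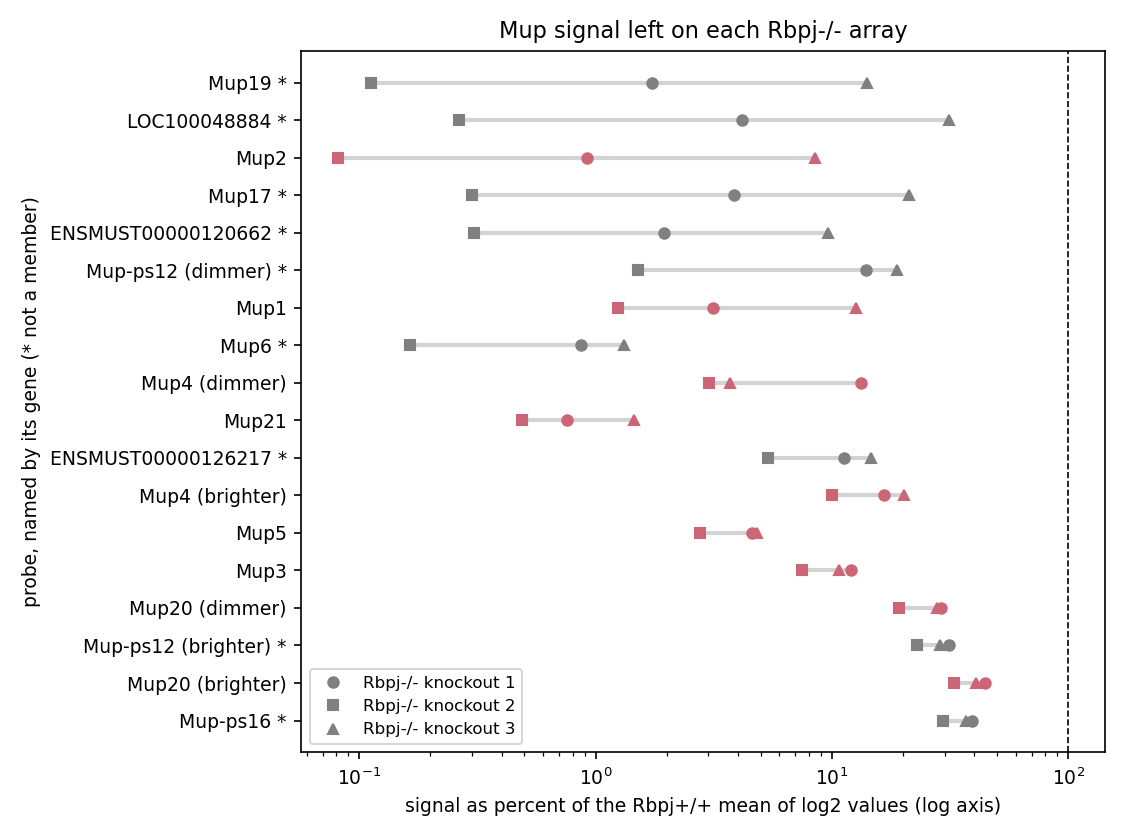
Signal left on each Rbpj-/- array as percent of the Rbpj+/+ mean of log2 values (x axis, log scale) for all 18 Mup probes (y axis), ordered by the range among the 3 arrays. Circles are knockout 1, squares knockout 2 and triangles knockout 3, red for members and grey with an asterisk for other Mup probes. Mup19, LOC100048884, Mup2 and Mup17 spread from 0.3% or less to 8.50% or more, and Mup20 and Mup-ps16 stay between 19.3% and 44.6%.

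Ranges were also set beside the annotation of the probes. The array lists transcripts of several Mup genes for 6 of the 18 Mup probes, namely Mup1, Mup2, Mup6, Mup17, Mup19 and LOC100048884, and for these the knockout arrays differed by 8.06- to 126-fold, with a median of 87.6-fold. For the 12 probes with 1 listed gene the range was 1.33- to 31.5-fold, with a median of 1.88-fold. Of those 12, the probe of transcript ENSMUST00000120662, at 31.5-fold, and the dimmer Mup-ps12 probe, at 12.5-fold and well above background on 2 of 3 knockout arrays, ranged more widely than Mup1 and Mup6 of the first set, so the sets overlapped. The listing holds at most 4 entries for a probe, so it may leave out further copies. Control arrays differed by 1.28- to 2.54-fold for the first set and by 1.31- to 2.36-fold for the second. These sets were drawn after the values were seen and were given no test.

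The other Mup probes moved as the members did. All 9 were called lower without overlap of the groups. Mup6, whose knockout signal was well above background on 2 of 3 arrays, fell the most, with a log2 fold change of -7.45 (SE 0.65, adjusted p = 0.000398 by limma). The log2 fold change was -6.16 for Mup19, -5.11 for Mup17 and -4.94 for LOC100048884, whose accession belongs to Mup18 in RefSeq, and each of these ranged by more than 70-fold among the knockout arrays. The Mup19 probe read 10.43, 10.43, 10.88 and 10.64 in the controls and 4.75, 0.79 and 7.77 in the knockouts, which is the order of arrays seen for Mup1 and Mup2. At the other end, the pseudogene probe Mup-ps16 fell by 1.51 (SE 0.20), close to the brighter Mup20 probe it resembles in sequence. The 2 Mup-ps12 probes fell by 3.77 and 1.87. Leaving out knockout 2 or 3 moved Mup6, Mup17, Mup19, LOC100048884, ENSMUST00000120662 and the dimmer Mup-ps12 probe by over 1.5-fold without loss of a call, from -4.94 to -3.13 without knockout 2 for LOC100048884 and from -6.16 to -4.34 for Mup19.

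The fall extended to unnamed probes inside the Mup cluster and was not general on the flanks. The Mup probes spanned chr4:59969824-61808925 of mm9, or 1.84 Mb. Inside this span lay 7 further tested probes named only by a transcript, contig or probe number, and all 7 were called lower, from -1.68 to -7.80 on the log2 scale. They lie among the Mup copies, and whether they read the same transcripts as the named Mup probes was not tested. Among 40 tested genes within 2 Mb on either side, 10 were called lower and 7 higher, with a median log2 fold change of -0.16. Over all tested genes, 19.6% were called lower and 14.6% higher. The nearest named genes were Snx30, a sorting nexin, with a fall of 0.74 (adjusted p = 0.0317), and Slc31a2, a copper transporter, with a rise of 0.54 (adjusted p = 0.0845, both by limma). The Snx30 call was lost without knockout 1, and the Slc31a2 call when any of 6 arrays was left out. Orm2, a lipocalin of the acute phase about 1220 kb away, rose by 1.64 (SE 0.31, adjusted p = 0.00838 by limma).

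Since the members moved together, the promoter sequences given by RefSeq (GRCm38.p6, 250 bases before to 50 after the start of each gene) were compared. The table held promoters for 4 of the 7 genes, Mup2, Mup3, Mup4 and Mup21. Upstream of the start these 4 were between 84.8% and 93.4% identical to each other. The stretch from the shared letters ACCCATA to the TATA-like TATATAA is shown, because it is where they differed in length, with the bases between these ends in capitals. It lies at chr4:60139877-60139961 for Mup2, chr4:62087322-62087369 for Mup3, chr4:59960690-59960740 for Mup4 and chr4:62150843-62150887 for Mup21, all on the minus strand.

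Mup2: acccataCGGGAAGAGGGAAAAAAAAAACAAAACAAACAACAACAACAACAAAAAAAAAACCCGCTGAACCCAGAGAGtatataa
Mup3: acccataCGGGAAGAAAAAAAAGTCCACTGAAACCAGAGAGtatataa
Mup4: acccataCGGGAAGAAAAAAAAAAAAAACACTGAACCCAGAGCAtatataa
Mup21: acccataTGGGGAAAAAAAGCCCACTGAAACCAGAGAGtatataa

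In Mup2, 71 bases separated the 2 ends, with an unbroken run of 45 A and C bases, against 34 bases in Mup3, 37 in Mup4 and 31 in Mup21. Of 11 Mup promoters that held both ends, those of Mup9, Mup10, Mup15, Mup17 and Mup19 resembled Mup2, with 66 to 70 bases, and that of Mup18 held 61, with a longest run of A and C of 18. That of Mup6 was short, with 35. Both strands of the 14 Mup promoters in the table were searched for the STAT motif TTCNNNGAA, the C/EBP motifs TTNNGCAA and TTGCNNAA and the forkhead motif TGTTTAC. The C/EBP motifs can match the same bases. None of the 14 promoters held any of them within the 300 bases, where 8.3% of all 32851 promoters held the first, 10.8% the second and 3.65% the third. This says only that these letters were not in that window.

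The genes that carry the growth hormone signal were examined next, from a list of 16 genes of which 15 were tested. Of these, 6 were called lower (19.6% of tested genes were) and 3 higher (14.6% of tested genes were), with a median log2 fold change of -0.50. The lower ones included some targets of the pathway. Igfals, the acid-labile subunit that holds circulating IGF1 complexes together, fell by 4.58 (SE 0.45, adjusted p = 0.000616 by limma). Socs2, a feedback inhibitor induced by growth hormone, fell by 3.11 (SE 0.39), and Igf1 itself by 2.65 (SE 0.21). Igf1 read 7.16, 6.83, 7.06 and 6.85 in the controls and 4.28, 4.05 and 4.65 in the knockouts, with a range of 0.60 log2 units among the knockouts against 3.35 for Mup1. Igfbp3, a carrier of IGF1, fell by 1.96, or by 1.34 without knockout 1. Of the receptor and transducers, the growth hormone receptor Ghr fell by 1.12 (SE 0.28, adjusted p = 0.023 by limma) and Stat5a by 0.81, a call lost without knockout 2. Jak2 and Stat5b did not pass, with log2 fold changes of 0.35 (adjusted p = 0.22) and -0.50 (adjusted p = 0.208, limma). Cish and Socs1 did not pass either, at -0.75 (SE 0.79, adjusted p = 0.515) and -0.03 (adjusted p = 0.952, limma), both with overlapping groups. Socs3, the inhibitor induced by cytokines, rose by 2.54 (SE 0.59), or by 3.34 without knockout 3, and the phosphatase Ptpn1 rose by 0.92.

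Transcription factors of hepatocytes and of sex-biased liver genes were examined in the same way. Of 25 tested factors, 9 were called lower and 2 higher, with a median of -0.40. That is 36% and 8%, beside 19.6% and 14.6% of all tested genes. Nfia, a nuclear factor I, fell by 1.46 (SE 0.27), and Cebpa, a factor of mature hepatocytes, by 1.01 (SE 0.39, adjusted p = 0.0877 by limma) with overlapping groups. Cebpa read 3.43 and 3.24 on knockouts 1 and 2 and 4.95 on knockout 3, inside the control range, and its call was lost when any of 5 arrays was left out. Cebpd, induced in the acute phase, rose by 2.51, or 3.17 without knockout 3, and Trim24 rose by 0.86. Hnf4a, Onecut1 and Bcl6 did not pass, with log2 fold changes of -0.32, -2.08 and -0.93. Leaving out knockout 1 or knockout 2 reduced the count of lower factors to 3, leaving out control 3 to 4 and leaving out control 4 to 5.

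Male-biased liver genes outside the Mup family fell in large numbers. Of 24 tested, 21 were called lower and 1 higher (Cib3, by 1.28, a call lost without knockout 2 or 3), with a median of -3.22. That is 87.5% and 4.17%, beside 19.6% and 14.6% of all tested genes. Among those called lower, Elovl3, Gna14 and Cspg5 were well above background on 0 of 3 knockout arrays. Hsd3b5, Cyp4a12b and Serpina4-ps1 were so on 1 of 3 and Slco1a1 on 2 of 3. These genes passed the filter through the control arrays alone. The count of 21 became 14 when only probes detected on all 7 arrays were tested. The largest falls were those of Hsd3b5, a steroid-metabolising enzyme, with -10.94 (SE 0.92), and of the serpin pseudogene Serpina4-ps1, with -10.18 (SE 0.72), and both were well above background on 1 of 3 knockout arrays. Elovl3, a fatty acid elongase well above background on 0 of 3 knockout arrays, was at least 294-fold lower. Hsd3b5 moved to -9.67 without knockout 2 and to -12.16 without knockout 3, and Serpina4-ps1 to -9.17 and -10.95. Of 17 tested female-biased genes, 7 were called higher (41.2%) and 1 lower (5.88%), with a median of 0.96. Among those called higher, Cyp2b9, Cyp2b13, Sult2a1 and Nipal1 were well above background on 1, 1, 2 and 3 of 4 control arrays. These passed the filter through the knockout arrays alone. The Cyp2b10 call was lost when any of 5 arrays was left out, and the Nipal1 call when any of 3 was. The count of 7 became 2 without a filter on dim probes. Sult2a1, a bile acid and steroid sulfotransferase, rose the most, by 9.77 (SE 0.87, adjusted p = 0.000428 by limma), with 2 of 4 control arrays well above background. That value was 9.17 without control 2 and 10.45 without control 4. Cyp2b13, well above background on 1 of 4 control arrays, gave a log2 fold change of 3.62, or 2.44 without knockout 3 and 4.27 without knockout 1, and Cyp4a10 fell by 2.81 with overlapping groups, a call lost when any of 5 arrays was left out. Of the sex-linked genes, the Y-linked Ddx3y, Eif2s3y and Uty were well above background on all 7 arrays and 0 of 3 passed the test, while Xist was so on 1 of 4 control and 0 of 3 knockout arrays.

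**Figure D4:**
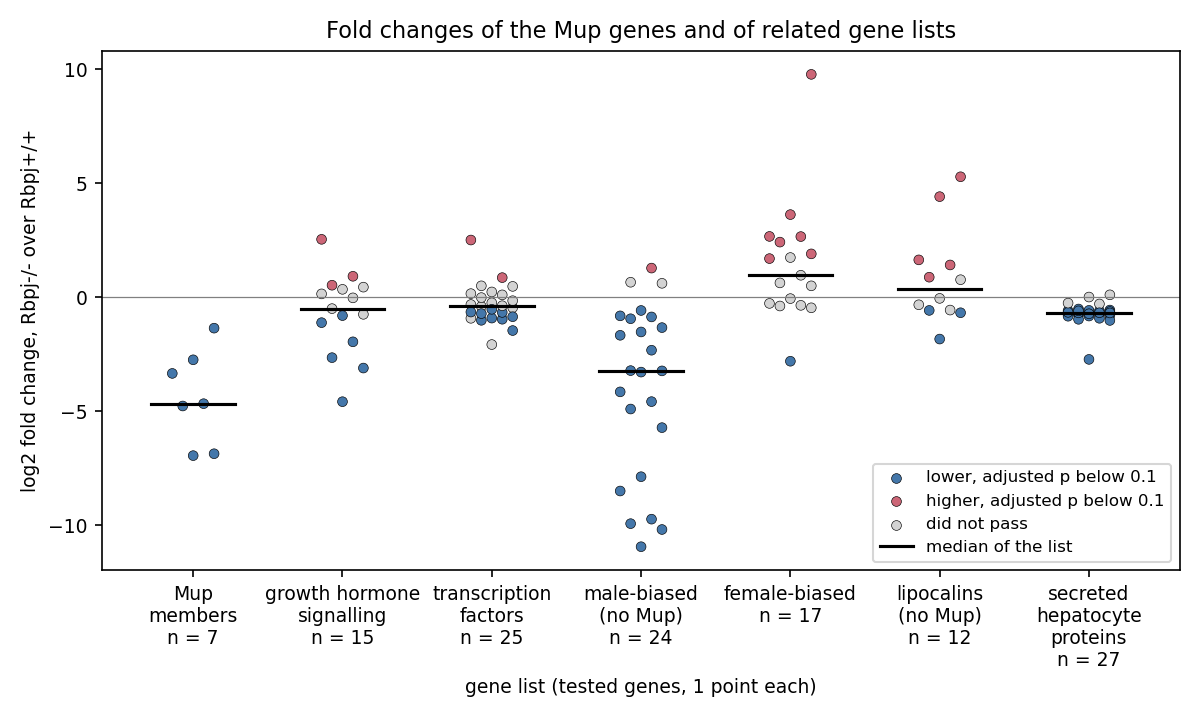
Log2 fold changes (y axis, Rbpj-/- over Rbpj+/+) of the tested genes of each list (x axis), 1 point a gene, with the list's median as a black line. Blue points were called lower, red points higher at an adjusted p below 0.1, and grey points did not pass. The 7 Mup genes lie between -6.94 and -1.36, male-biased genes reach -10.94 and female-biased genes reach 9.77.

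Lipocalins outside the Mup genes moved in both directions, and abundant secreted hepatocyte proteins fell less than the Mup genes on the percentile scale. Of 12 tested lipocalins outside the Mup genes, 3 were called lower and 5 higher, with a median of 0.36. That is 25% lower and 41.7% higher, beside 19.6% and 14.6% of all tested genes, so the share called lower was near that of all genes. Lcn2, a lipocalin of inflammation that binds bacterial siderophores, rose by 5.28 (SE 0.94, adjusted p = 0.00643 by limma), by 4.62 without control 2 and by 5.95 without control 1, and Orm3, an acute-phase orosomucoid, by 4.41 (SE 0.40). C8g, a complement subunit, fell by 1.84 (SE 0.34). The count of 3 lower became 1 without knockout 2. Among 27 tested abundant secreted hepatocyte proteins 23 were called lower and 0 higher, with a median of -0.68, far smaller than the -4.67 of the members. The largest of these falls was that of Serpina3k, at 2.73 (SE 0.24), and Alb fell by 0.78 (SE 0.18, adjusted p = 0.0167 by limma). The count of 23 became 6 under quantile normalization, 5 in the authors' values and 11 without knockout 2, with 13 without knockout 1 and 14 without control 3. The summed level of these proteins was 17090, 15340, 20420 and 17180 times the 75th percentile on the 4 control arrays. On the 3 knockout arrays it was 10350, 10850 and 11400 times, so knockout 2 lay between the other 2 there. That percentile was higher on the knockout arrays (118 to 143) than on the control arrays (57.5 to 103). How much of the fall of these proteins comes from the scaling was not tested.

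Markers of other cell types also moved with genotype. For comparison with the counts below, 19.6% of all tested genes were called lower and 14.6% higher. Of 12 hepatocyte markers 5 were called lower (3 without control 3 or without knockout 1) and 0 higher, and their summed level was 2891 to 4528 in the controls and 2416 to 3053 in the knockouts. These counts depended on the processing. Over the alternatives 1 to 5 were called lower and 0 to 3 higher, with 1 lower without a filter on dim probes and 3 higher under another background correction. Macrophage markers were called higher for 6 of 7, with summed levels of 98.5 to 131 in the controls and 353 to 465 in the knockouts. Stellate cell and fibroblast markers were higher for 6 of 8 (132 to 204 against 253 to 312), neutrophil markers for 3 of 5 with 1 lower, a call lost when any of 6 arrays was left out (5.05 to 22.3 against 32.4 to 68.9) and endothelial markers for 2 of 6 with 1 lower (52.2 to 75.7 against 82.6 to 129). Cholangiocyte markers were higher for 2 of 5 (2.94 to 3.91 against 4.66 to 11.1), and 1 of these, Sox9, had overlapping groups and lost its call when any of 5 arrays was left out. Of lymphocyte markers 5 of 8 were lower and 1 higher (12.5 to 17.0 against 8.55 to 11.6). Erythroid markers were lower for 1 of 4 (229 to 519 against 100 to 432), and the 1 tested acinar marker, Ctrb1, was lower (1.61 to 2.58 against 1.0 to 1.69), a call lost when any of 4 arrays was left out, with Prss1 and Pnlip well above background on no array. The part of these cell types in the Mup falls was not tested.

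Among genes outside the family, those whose levels followed the mean of the 7 Mup genes most closely over the 7 arrays were Hsd3b5 (Pearson r = 0.9986), Cyp4a12b (0.9959), a male-biased fatty acid hydroxylase, and Ces3b (0.9952), a liver carboxylesterase. The next were Olfr75-ps1 (0.9951) and a long non-coding RNA probe on chromosome 15 (0.9943). All 5 fell, with log2 fold changes of -10.94, -9.93, -7.90, -1.48 and -1.29. Hsd3b5 and Cyp4a12b were each well above background on 1 of 3 knockout arrays, so their values on the others have no order. Ces3b, well above background on all of them, read -1.55, -3.58 and 1.18, the order of arrays seen for Mup1 and Mup2. These correlations describe 7 arrays in 2 groups that lie far apart, and 462 of 18739 other genes exceeded 0.95.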

How the data were processed

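Gene expression of whole liver from 3 Rbpj-/- and 4 Rbpj+/+ mice was measured on 1-colour Agilent arrays, and the groups follow the genotype in the sample titles. The authors deposited the scanner output of Feature Extraction 10.7.3.1 as signal intensity on a linear scale, already background-subtracted, with probe positions of mm9. The authors also deposited a table of log2 values, which per array correlated at 1.00 with quantile-normalized values centred on each probe's median and at 0.78 to 0.88 with the percentile scaling; it served as an alternative.

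Log2 signal minus the array's 75th percentile was used, as a mean over the spots of a probe and without spots that the scanner software marked non-uniform or outlying. Testing required detection well above background on every array of 1 genotype or both. limma 3.58.1 in R 4.3.3 gave moderated fold changes (the methods' shrinkage statistic was not run), adjusted by Benjamini-Hochberg over 24547 probes at a threshold of 0.1. Single values were compared by an exact permutation test over 35 splits. The replicates were separate animals. Tested on simulated data, 187 of 200 changed probes were recovered among 24547, and 27 were called without a change. The planted changes were larger than many of those reported here, so recovery of small changes was not tested.

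The 7 members and all lists were chosen with earlier results of these data known, and so lend no independent support. Genes were named by a rule: every Mup probe, neighbours, sex-linked genes, Rbpj, the largest calls of each list, and the 5 genes most like the mean of the members. Alternatives were another background correction, 3 other scalings or sources, filters, marked spots, tests, a threshold of 0.05, other probes for a gene, and leaving out each array; leaving out 2 arrays together was added after the data were seen. No protein sequences were used here, and promoters of Mup1, Mup5 and Mup20 were not used here.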

Additional observations from a re-analysis of the deposited data

Results flagged for a closer look

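Among the 18 Mup probes and 2 Rbpj probes examined in the 4 control arrays, 1 stood apart. On the brighter Mup-ps12 probe, control 2 read 7.35 on the log2 scale against 7.69 to 7.74 on the other 3, so that the gap to its nearest neighbour was 0.869 of the group's whole range, above Dixon's critical value for a group of 4. Chance flags about 1 in 20 groups. The knockout arrays read 5.95, 5.50 and 5.83 on this probe, all below control 2.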

How the results depend on the processing

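All 7 member genes stayed called lower in all 18 alternatives, and each member's log2 fold change stayed negative and called. The ranges over all alternatives were -5.66 to -3.99 for Mup1, -8.52 to -5.16 for Mup2, -3.60 to -3.05 for Mup3, -3.49 to -2.31 for Mup4, -4.87 to -4.34 for Mup5, -1.68 to -0.91 for Mup20 and -7.37 to -6.24 for Mup21, with a highest adjusted p of 0.0748, for Mup2 (limma). The ends for Mup1 and Mup2 came from leaving out knockout array 2 or 3. The alternative of probes listed for 1 Mup gene gave no value for Mup1 and Mup2, whose probes list several. Over all probes, 4719 were called lower and 3522 higher. The balance turned to 3678 lower and 3873 higher under quantile normalization, 3616 and 3848 in the authors' table, and 4078 and 4315 with the percentile over probes detected on all arrays. Without a filter on dim probes these became 848 and 1190, where more probes were tested, and 3047 were called lower at a threshold of 0.05. Leaving out each array gave 2362 to 5492 lower and 2311 to 3527 higher. The fewest came without knockout 2, and 2835 were lower without control 3 and 3069 without knockout 1. Leaving out control 2 and knockout 1 together, the 2 arrays with the brightest dim probes, was chosen after seeing the data and gave 4236 and 2856. The median log2 fold change of all tested probes moved from -0.12 to -0.04 under quantile normalization and in the authors' table. Of 576 counts over the lists and marker sets under an alternative, 484 lay within 1.5 times the main count. Signal over background limits the dimmer Mup4 probe to a bound. No paired analysis was possible because the labels give each animal its own number, so no replicate block could be fitted.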
